A study of Homo sapiens with 8 samples.

Results

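CTNNB1, the gene of beta-catenin, and 9 genes that canonical Wnt signalling is known to switch on as feedback (AXIN2, NKD1, LGR5, SP5, ZNRF3, RNF43, NOTUM, TCF7 and TBX3) were followed through 8 libraries. The genes were taken by symbol from a list that was chosen with earlier results of these data known. All 10 were found among the 26830 symbols of the table. The series compared cultures of HEK293T, a human embryonic kidney line, in the form of a single clone that carries the Cas9 nuclease. 3 cultures had received a lentiviral guide RNA against METTL16 (sgMETTL16-1, sgMETTL16-2 and sgMETTL16-3, a different guide in each) and 1 culture the negative control guide (sgNS). Selection of all 4 cultures used blasticidin (10 µg/ml) together with puromycin (2 µg/ml) over at least 1 week. Ribosomes were then held in place on the mRNA with 100 µg/ml cycloheximide (5 min). Each culture gave 1 library of input RNA and 1 of ribosome footprints, the fragments of 17 to 34 nt that ribosomes shield, so sgNS had no replicate of either kind. Values are the TPM that the authors deposited, each gene's share of a library's transcripts after division by transcript length.

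Beta-catenin joins cadherins to the cytoskeleton and is also the transcriptional effector of canonical Wnt signalling. Without a Wnt signal a destruction complex built on axin marks it for degradation, and when the complex is held back beta-catenin enters the nucleus and acts with TCF/LEF factors. Many of the genes it switches on restrain the pathway again: AXIN2 rebuilds the destruction complex, NKD1 binds Dishevelled, ZNRF3 and RNF43 remove Frizzled receptors, and NOTUM strips the lipid that Wnt ligands need. In liver, activity of the pathway marks the hepatocytes around the central vein.

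RefSeq promoter windows were matched for 4 of the 10 genes (SP5, CTNNB1, TCF7 and RNF43, GRCh38.p14), and 2 are shown, because SP5 was the most abundant of the feedback genes in the input and CTNNB1 encodes the factor that acts on them. Each is the 250 bases before the start site, 5′ to 3′ on the plus strand, at chr2:170715087-170715336 for SP5 and chr3:41199255-41199504 for CTNNB1. Capitals mark CTTTG, the core of the TCF/LEF motif, on either strand (CAAAG on the other strand), and the longer form CTTTGAT, which contains the core.
SP5: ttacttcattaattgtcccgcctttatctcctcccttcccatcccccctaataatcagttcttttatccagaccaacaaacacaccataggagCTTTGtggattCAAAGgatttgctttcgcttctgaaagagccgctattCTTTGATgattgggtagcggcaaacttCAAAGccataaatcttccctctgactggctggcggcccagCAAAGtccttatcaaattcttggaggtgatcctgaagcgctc
CTNNB1: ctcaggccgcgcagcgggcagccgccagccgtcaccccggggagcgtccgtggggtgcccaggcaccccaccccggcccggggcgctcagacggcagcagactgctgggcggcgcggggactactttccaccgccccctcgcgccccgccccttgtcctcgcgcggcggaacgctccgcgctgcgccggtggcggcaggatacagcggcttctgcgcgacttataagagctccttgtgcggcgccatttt
The SP5 window held 5 copies of CTTTG, with first bases at -157, -146, -109, -82 and -42 from the start site, and the copy at -109 was part of the single CTTTGAT. Of 35116 promoter windows of this length, 42.1% held at least 1 CTTTG, 0.0854% held 5 or more, and 2.26% held a CTTTGAT. The CTNNB1 window held neither form. Its GC content was 74.4%, against 45.6% for SP5 and a median of 58% over all windows. TCF7 had a pair of windows, 1 with 2 copies of CTTTG and 1 with 0, and each of the RNF43 windows held 1. These matches describe letters in a window and not sites that were bound.

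Before the genes themselves, the libraries were checked against their labels. Input TPM of METTL16, the targeted gene, was 4.72, 5.25 and 4.16 with its 3 guides, against 5.31 with sgNS. As deposited METTL16 was lower in 3 of 3 cultures, where 5.37% of genes averaging at least 1 TPM were. The sgMETTL16-2 value of 5.25 lay close to the control. With every library centred on its median gene, the fit put METTL16 at -0.68 on the log2 scale (SE 0.36, limma adjusted p = 0.482). On the centred scale 34.2% of those genes were lower in all 3. Of 13 hepatocyte markers, 11 reached 10 TPM in all inputs, and the list's summed input level was 6756, 7009 and 4352 TPM in sgMETTL16-1, sgMETTL16-2 and sgMETTL16-3, against 3800 TPM in sgNS. Of 11 listed markers of HEK293 cells, NEFL, NEFM, VIM and STMN2 were listed at 0 in all 4 inputs, 1 other was under 1 TPM in all inputs, and the list's sum of 1180, 1329 and 1236 TPM, against 689 TPM in sgNS, was mostly KRT8 and KRT18, which hepatocytes also express. The other markers on the HEK293 list were present in every input: NES (8.94 to 10.42 TPM), ENO2 (8.93 to 12.06), CDH2 (6.13 to 12.03) and L1CAM (1.87 to 2.24). The hepatocyte markers and the HEK293 markers listed at 0 go against the labelled line, while these others do not. No other name is given to the cells here. All 8 fibroblast markers, 5 of 8 blood markers and 6 of 7 intestinal markers were under 1 TPM in every input, the others being CD14, CD68 and lysozyme (LYZ) for blood and villin (VIL1) for intestine. Of those under 1 TPM, some had footprints: CD3E reached 40.33, PTPRC 10.47, THY1 10.19 and COL1A1 3.51 TPM. Each of these was listed at 0 in at least 1 footprint library. The rest of these fibroblast, blood and intestinal markers were listed at 0 in every footprint library. Between 20095 and 22468 of the 26830 genes were listed at 0 in a footprint library. TPM keeps no read totals, so depth is unknown and no counting interval was set on any value.

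All 10 genes were present in every input. By mean over the 4 inputs SP5 came first at 74.5 TPM, then NOTUM at 56.1, CTNNB1 at 42.1, NKD1 at 36.1, TBX3 at 28.7, ZNRF3 at 21.4, RNF43 at 20.4, AXIN2 at 19.1, TCF7 at 14.5 and LGR5 at 5.78 TPM. The ranges of neighbours in this order overlapped except for AXIN2 over TCF7 and TCF7 over LGR5, and NKD1 lay above TBX3, and TBX3 above ZNRF3, in all 4 inputs although their ranges overlapped. Among 18786 protein-coding genes, 97.5% had a lower mean input than SP5, 94.8% lower than CTNNB1 and 71.1% lower than LGR5. Within each gene the highest input was between 1.35 times (TCF7) and 2.59 times (CTNNB1) the lowest. Since these are shares of bulk RNA, more cells with a transcript and more transcript per cell cannot be told apart.

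**Figure D1:**
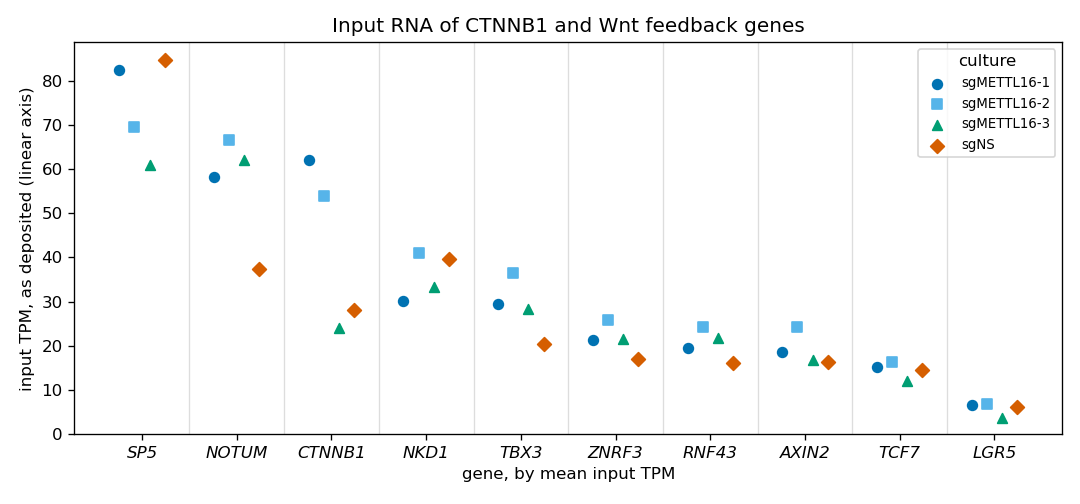
Input TPM (linear axis) of the 10 genes in the 4 cultures, 1 point per library, genes ordered by mean. SP5 and NOTUM stand highest and LGR5 lowest, and CTNNB1 is the gene whose libraries lie furthest apart, from 23.97 to 62.17 TPM.

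The abundance of each transcript in the input was compared between the sgMETTL16 cultures and sgNS. The test was run with limma on log2(TPM + 1) with every library centred on its median gene, over 10967 genes averaging at least 1 TPM, and p-values were adjusted over all of them. None of the 10 genes passed an adjusted p of 0.05, a call that 310 genes (2.83%) received, 1.58% as higher and 1.25% as lower. The unadjusted p was under 0.05 for 1226 genes, and the smallest among the 10 was 0.0527, for SP5. Over all genes limma called 22 as higher and 1 as lower on TPM as deposited, and 110 without sgMETTL16-1 or 664 without sgMETTL16-3, compared with 173 and 137 in the centred fit. The median log2 change was -0.20 over the 10 genes and -0.06 over all genes tested, and 3 of the 10, or 43.0% of all, lay above 0. The scale matters for these directions: without centring, the median change of all genes was 0.46, and all 3 sgMETTL16 inputs exceeded sgNS for 64.1% of genes and fell short of it for 5.37%. With centring these shares were 23.4% and 34.2%.

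CTNNB1 (chromosome 3, 41199505 to 41240443, GRCh38) had 62.17, 53.98 and 23.97 TPM in the sgMETTL16-1, sgMETTL16-2 and sgMETTL16-3 inputs (46.7 ± 20.1, SD, n = 3), against 28.09 TPM in the sgNS input. The first 2 guides gave about the same high level, while the third lay below the control, so the groups overlapped. The log2 change was 0.08 (SE 0.40, 95% interval -0.70 to 0.85, limma adjusted p = 0.985), an interval that leaves room for a change of either sign. The same split between the first 2 cultures and the other 2 was seen in the hepatocyte marker sums given above and in the share of input TPM from protein-coding genes, which was 25.4%, 26.3% and 20.1% in the sgMETTL16 cultures, against 20.3% in sgNS. Their part in the CTNNB1 values was not tested.

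The feedback genes that act on the destruction complex and on Dishevelled were AXIN2 and NKD1. AXIN2 (chromosome 17, 65528563 to 65561648) had 18.64, 24.32 and 16.88 TPM in the sgMETTL16 inputs (19.9 ± 3.89, SD, n = 3), against 16.38 TPM in sgNS. All 3 cultures were above the control on TPM as deposited and all 3 below it after centring, and the centred log2 change was -0.28 (SE 0.38, limma adjusted p = 0.916). Of all tested genes 64.1% were above the control in all 3 cultures as deposited, and 34.2% were below it in all 3 after centring. NKD1, a binding partner of Dishevelled (chromosome 16, 50548396 to 50649249), had 30.24, 41.00 and 33.31 TPM in the sgMETTL16 inputs (34.9 ± 5.54, SD, n = 3), against 39.66 TPM in sgNS. The sgMETTL16-2 culture was the only 1 of the 3 above the control. After centring all 3 were below it, with a log2 change of -0.72 (SE 0.39, limma adjusted p = 0.506).

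At the cell surface, LGR5 binds R-spondins, and ZNRF3 and RNF43 are paralogous ubiquitin ligases that R-spondins hold back. LGR5 (chromosome 12, 71439129 to 71586310) had 6.69, 6.73 and 3.56 TPM in the sgMETTL16 inputs (5.66 ± 1.82, SD, n = 3), against 6.14 TPM in sgNS, with the control inside the range of the 3. Its log2 change after centring was -0.67 (SE 0.36, limma adjusted p = 0.503). The ligases kept close to each other in every input library. ZNRF3 (chromosome 22, 28883572 to 29057488) had 21.21, 25.75 and 21.61 TPM in the sgMETTL16 inputs (22.9 ± 2.51, SD, n = 3), against 17.08 TPM in sgNS. RNF43 (chromosome 17, 58352500 to 58417534) had 19.49, 24.36 and 21.66 TPM there (21.8 ± 2.44, SD, n = 3), against 16.19 TPM in sgNS. Both were higher in all 3 cultures on TPM as deposited, where 64.1% of all tested genes were, by 1.34 and 1.35 times on the mean. After centring they had log2 changes of -0.13 (SE 0.39) and -0.12 (SE 0.38), each with a limma adjusted p of 0.972.

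NOTUM, a secreted carboxylesterase (chromosome 17, 81952507 to 81961187), had 58.30, 66.62 and 62.06 TPM in the sgMETTL16 inputs (62.3 ± 4.17, SD, n = 3), against 37.35 TPM in the sgNS input. The 3 cultures lay close together and all above the control, 1.67 times on the mean. As deposited, 64.1% of all tested genes were above it in all 3, and the median log2 change of all genes was 0.46. NOTUM was also the gene with the highest centred change of the 10, a log2 change of 0.19 (SE 0.40, 95% interval -0.59 to 0.98, limma adjusted p = 0.958). In sgMETTL16-1 it was -0.01 on that scale.

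Of the transcription factors, TCF7 is a partner of beta-catenin on DNA, SP5 a zinc-finger repressor that counters other Sp factors at Wnt targets, and TBX3 a T-box factor. TCF7 (chromosome 5, 134108218 to 134148210) had 15.11, 16.27 and 12.04 TPM in the sgMETTL16 inputs (14.5 ± 2.19, SD, n = 3), against 14.62 TPM in sgNS, and was at -0.55 after centring (SE 0.38, limma adjusted p = 0.684). SP5 (chromosome 2, 170715337 to 170718078) had 82.52, 69.62 and 61.04 TPM there (71.1 ± 10.8, SD, n = 3), against 84.66 TPM in sgNS. It was the only one of the 10 below the control in all 3 cultures both as deposited and after centring with no overlap on either scale, and had the lowest fitted change, -0.79 (SE 0.41, 95% interval -1.59 to 0.01, limma adjusted p = 0.459). Of all tested genes 5.37% were below the control in all 3 cultures as deposited, and 34.2% after centring. TBX3 (chromosome 12, 114670255 to 114684175) had 29.57, 36.51 and 28.25 TPM (31.4 ± 4.44, SD, n = 3), against 20.36 TPM in sgNS, 1.54 times on the mean. Its centred log2 change was 0.07 (SE 0.39, limma adjusted p = 0.99).

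**Figure D2:**
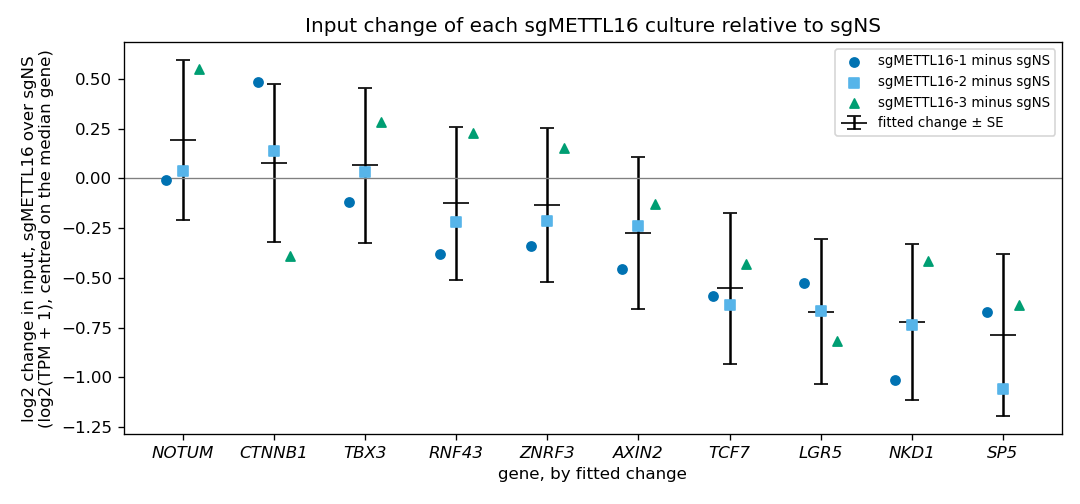
Log2 change in input relative to sgNS for the 10 genes, on log2(TPM + 1) centred on the median gene; coloured points are the 3 sgMETTL16 cultures and black marks the fitted change ± SE. No gene passed the threshold, and SP5, NKD1, LGR5, TCF7 and AXIN2 have all 3 points below 0.

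As deposited, 5 of the 10 genes were higher in all 3 sgMETTL16 inputs than in sgNS: AXIN2, ZNRF3, RNF43, NOTUM and TBX3. Of all tested genes 64.1% were. SP5 was lower in all 3, where 5.37% of all tested genes were. After centring 0 of the 10 were higher in all 3, where 23.4% of genes were, and 5 (AXIN2, NKD1, LGR5, SP5 and TCF7) were lower in all 3, where 34.2% were. The cultures share 1 control, so these counts repeat the same sgNS value. The guides also differed among themselves. CTNNB1 was at 0.48, 0.14 and -0.39 relative to sgNS after centring in sgMETTL16-1, sgMETTL16-2 and sgMETTL16-3, whereas RNF43 was at -0.38, -0.22 and 0.23 and ZNRF3 at -0.34, -0.22 and 0.15. Over the 4 inputs CTNNB1 correlated with RNF43 at r = -0.981 and with ZNRF3 at r = -0.966, and AXIN2 with NKD1 at r = 0.973. Other pairs were computed and are not given, and no share over all genes stands beside these. With 4 libraries that also share their centring, these values are a description.

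Among 3924 other protein-coding genes with a mean input of 10 TPM or more, those with input profiles most like CTNNB1 over the 4 libraries were CYB5B (r = 0.997), STX16 (0.995), NDEL1 (0.993), TMEM248 (0.991) and GSTO1 (0.9901). For AXIN2 they were SALL1 (0.99), NOP10 (0.989), SOX9 (0.984), PCBP1 (0.982) and NKD1 (0.973), so that 1 of the 5 was another of the feedback genes.

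The rest of the pathway was unevenly represented in the input. Of 19 listed ligand and ligand-export genes in the table only WNT7B, a ligand, and PORCN, which attaches the lipid to Wnt proteins, reached a mean of 1 TPM, at 2.35 and 2.29 TPM. WNT9A and WNT11, the next ligands, averaged 0.315 and 0.28 TPM. None of the 4 R-spondin genes exceeded 0.01 TPM in any input, and of their other receptors LGR4 averaged 12.9 TPM and LGR6 0.08 TPM. Of 15 receptor genes 6 reached 1 TPM, led by the co-receptor LRP5 at 39.5 TPM and the Frizzled genes FZD5 at 37.2 and FZD4 at 18.3 TPM, with RYK at 7.25 TPM. Of 14 secreted antagonists and their receptors, DKK1 averaged 10.6 TPM and KREMEN1 4.71 TPM, and the others were below 1 TPM, with KREMEN2 at 0.885 and SFRP5 at 0.585 TPM.

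Intracellular components were present more widely. Of 15 genes of the destruction complex and Dishevelled 13 reached 1 TPM, with DVL1 at 35.9, the kinase GSK3A at 34.0, DVL3 at 28.9 and the kinase CSNK1A1 at 20.5 TPM, while APC, named after its value was seen, averaged 0.895 TPM. Of 14 TCF/LEF factors and cofactors 9 did, with AES at 60.5, PYGO2 at 28.7, BCL9L at 23.2 and CHD8 at 22.3 TPM. The adhesion partners of beta-catenin were led by JUP at 30.9, CTNNA1 at 26.8, CTNND1 at 17.0 and CDH2 at 8.71 TPM. Other known targets divided in a similar way: CCND1 (106 TPM), SOX9 (72.9), MYC (47.4) and BMP4 (29.2) were high, while ASCL2, EPHB2 and EPHB3, targets known from intestine and named here after their values were seen, were below 0.1 TPM in every input. Of the targets known from liver, glutamine synthetase (GLUL) averaged 53.9 TPM, RHBG 19.6, SLC1A2 5.66 and OAT 5.55 TPM, and CYP2E1 and CYP1A2, also named after their values were seen, did not exceed 0.1 TPM in any input.

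**Figure D3:**
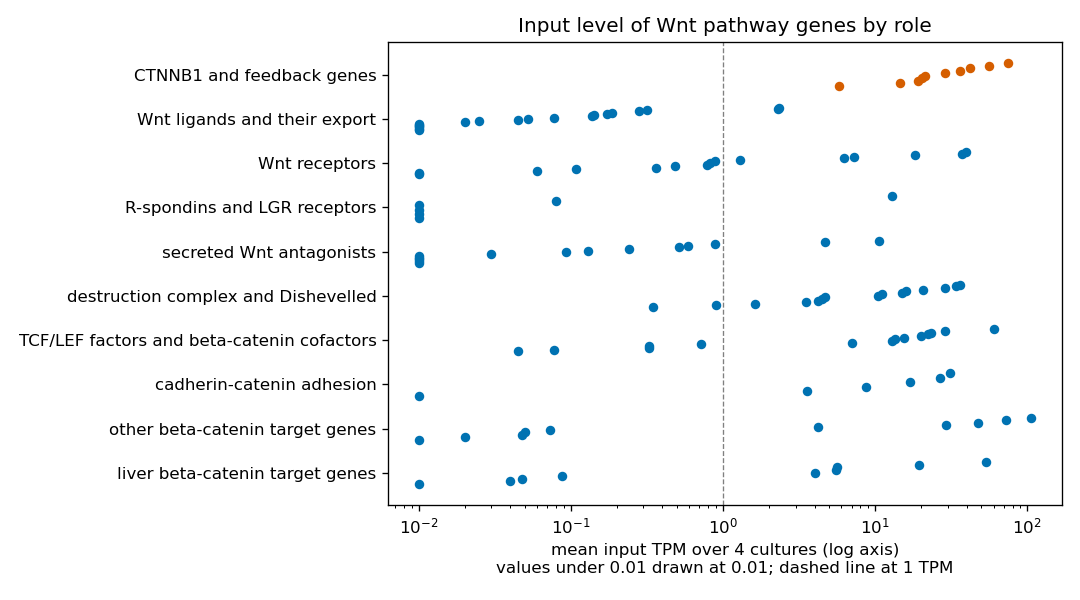
Mean input TPM over the 4 cultures (log axis, values under 0.01 drawn at 0.01) of Wnt pathway genes grouped by role, 1 point per gene. The 10 genes described here all lie above 1 TPM, most ligands and all R-spondin genes below it.

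None of the 48 tested genes in these 9 lists passed the input threshold in limma, where 2.83% of all genes did, and 5 had an unadjusted p under 0.05. The median log2 change was -0.22 over 6 receptors, 0.05 over 13 destruction complex and Dishevelled genes, -0.38 over 9 TCF/LEF factors and cofactors, 0.09 over 5 adhesion genes, -0.10 over 5 other targets and 0.29 over 5 liver targets, against -0.06 over all genes. The ligand list had 2 tested genes (median 0.16), the antagonists 2 (-0.37) and the R-spondin list 1, LGR4, at 0.42. The changes with the smallest adjusted p in the lists, picked out after the values were seen, went both ways: SLC13A3, a liver target, was at -1.01 (limma adjusted p = 0.107), SLC1A2 at 0.93 (limma adjusted p = 0.193) and DVL2 at -0.89 (limma adjusted p = 0.272).

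Averaged over the 4 cultures, footprint TPM was above input TPM for CTNNB1, TCF7 and LGR5 and below it for the other 7 genes. Only for CTNNB1 did this hold in every culture. TCF7 was at 0.722 times its input in sgMETTL16-3, and LGR5 footprints were listed at 0 in sgMETTL16-2 and sgMETTL16-3. CTNNB1 had footprints of 167.70, 134.67 and 66.66 TPM with the 3 METTL16 guides, against 116.96 TPM with sgNS, and the control lay inside the range of the 3. The hepatocyte markers' summed footprints were 19765, 15829 and 3935 TPM with those guides, against 11450 TPM in sgNS, and protein-coding genes held 26.8%, 28.2% and 11.9% of footprint TPM there, against 26.9% in sgNS. Their part in the CTNNB1 footprints was not tested. Of the summed footprint TPM of the 10 genes CTNNB1 held 62.0%, 65.2% and 83.8% in the sgMETTL16 cultures and 60.2% in sgNS, compared with 18.1%, 14.8% and 8.43% of their summed input TPM in the sgMETTL16 cultures and 10.0% in sgNS. TCF7 was the only other of the 10 above 0 in all 4 footprint libraries, at 36.81, 19.14 and 8.69 TPM in the sgMETTL16 cultures, against 17.42 TPM in sgNS, also with overlap.

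RNF43 and TBX3 were detected in 3 footprint libraries and listed at 0 in sgMETTL16-3, the library with most genes at 0. RNF43 footprints were at 14.81, 11.27 and 0 TPM in the sgMETTL16 cultures, against 10.25 TPM in sgNS, and TBX3 footprints at 12.73, 26.49 and 0 TPM, against 12.05 TPM. ZNRF3 had 4.49, 3.12 and 4.24 TPM in the 3 sgMETTL16 cultures and was listed at 0 in sgNS. NOTUM had 13.67 and 9.48 TPM in sgMETTL16-1 and sgMETTL16-2 and was listed at 0 in sgMETTL16-3 and in sgNS. LGR5, the lowest of the 10 in the input, had 13.26 TPM in sgMETTL16-1 alone among the sgMETTL16 cultures, against 37.64 TPM in sgNS. AXIN2 appeared once, at 7.11 TPM in sgMETTL16-1, and NKD1 once, at 2.38 TPM in sgMETTL16-2. SP5, the most abundant of the 10 in the input, was listed at 0 in all 4 footprint libraries.

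**Figure D4:**
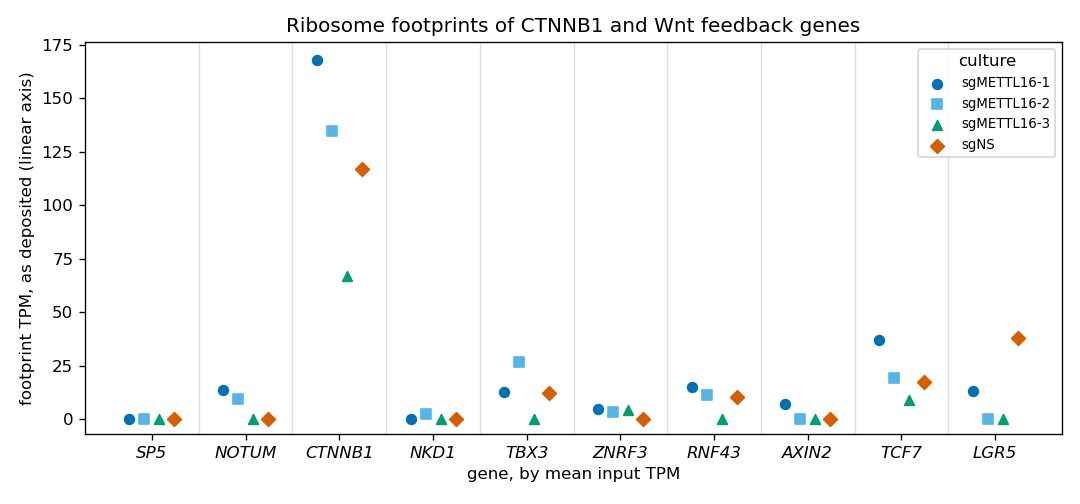
Footprint TPM (linear axis) of the 10 genes in the 4 cultures, 1 point per library, in the order of their mean input. CTNNB1 lies between 66.66 and 167.70 TPM, every other point is below 40 TPM, and all 4 SP5 points are at 0.

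These zeros have to be read against the sparse libraries. Of 3925 protein-coding genes with a mean input of 10 TPM or more, 34.3%, 25.6% and 49.9% were listed at 0 in the footprints of sgMETTL16-1, sgMETTL16-2 and sgMETTL16-3, against 47.9% in sgNS. At this input level 2 of 9 of the genes described here were above 0 in all 4 footprint libraries, where 29.2% of coding genes were, and 3 of 9 were above 0 in at most 1, where 27.8% were. At a mean input of 20 TPM or more, which 7 of the genes reached, 1 of 7 was above 0 in all 4, where 37.4% of 2218 coding genes were, and 2 of 7 were above 0 in at most 1, where 20.2% were. From the mean input of NKD1 upward, 1 of 4 was above 0 in all 4, where 47.3% were, and 2 of 4 (SP5 and NKD1) were above 0 in at most 1, where 12.8% were. The last cut was set at the input of NKD1, a gene counted here, so the 2 of 4 depends on that choice. These are small counts, given with no test. Of 475 coding genes with a mean input at least as high as that of SP5, a cut likewise taken from a gene counted, 13 (2.74%, SP5 among them) were listed at 0 in all 4. How many reads a TPM stands for depends on transcript length, which the table does not give.

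Several low footprint values also stood in whole-number ratios between libraries. Between a pair of footprint libraries a single ratio recurred among genes (sgNS to sgMETTL16-1, sgMETTL16-2 and sgMETTL16-3 at 1.89, 2.73 and 2.01, shared within 0.02 in the natural log by 29.0%, 23.6% and 33.8% of the genes above 0 in both). The sgMETTL16 values were multiplied by these ratios to put them on the scale of sgNS. TCF7 footprints then stood as 4, 3 and 1 in the sgMETTL16 cultures to 1 in sgNS, and TBX3 as 2, 6 and 0 to 1. ZNRF3 stood as 1, 1 and 1 to 0, NOTUM as 1, 1 and 0 to 0 and LGR5 as 2, 0 and 0 to 3. Each was within 0.02 of whole numbers. CTNNB1 needed a base of 7, giving 19, 22 and 8 in the sgMETTL16 cultures to 7 in sgNS, and RNF43 gave no whole numbers with any base up to 10. What 1 unit is in reads is not known, and this reading was made after the values were seen. Each gene was scaled to its own lowest value above 0, and the smallest base that gave whole numbers was kept. A unit is therefore not the same amount in each gene, and the numbers set no limit on the reads behind a value.

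LEF1 and CD44, a TCF/LEF factor and a known target that were named after their values were seen, had footprints with almost no input. LEF1 was at 25.70, 47.52 and 8.09 TPM in the sgMETTL16 footprints, against 48.65 TPM in sgNS, while its inputs lay between 0.24 and 0.38 TPM. CD44 was at 47.14, 10.90 and 4.94 TPM in the sgMETTL16 footprints, against 49.57 TPM in sgNS, with inputs of at most 0.14 TPM. The HEK293 marker VIM showed the same, with footprints from 43.3 to 188 TPM and every input listed at 0. For these genes footprint and input of the same culture differed widely, and whether that touches the values of the 10 genes was not tested.

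The footprint comparison asked which mRNAs held more or fewer ribosome-protected fragments in sgMETTL16 than in sgNS. It used limma on log2(TPM + 1) after each library was scaled by its median ratio over genes above 0 in all 4, and 8 of the 10 genes had the mean footprint of 1 TPM needed to enter, NKD1 and SP5 having less. 0 of the 8 passed (0 also at an unadjusted p of 0.05), where 608 of 9297 genes (6.54%, with 0.699% higher and 5.84% lower) did. Of those 608, 543 were listed at 0 in all 3 sgMETTL16 libraries and 64 in sgNS, METTL16 (19.76 TPM in sgNS and 0 in the others) being one of the 543. Without any 1 of the 3 sgMETTL16 libraries limma called 0 genes (1420 to 1942 at an unadjusted p under 0.05). The log2 change of CTNNB1 was 0.52 (SE 0.36, limma adjusted p = 0.695) and that of TCF7 0.59 (SE 0.72, limma adjusted p = 0.695). ZNRF3, at 2.39 (SE 0.77, limma adjusted p = 0.445), and LGR5, at -3.61 (SE 2.15, limma adjusted p = 0.695), had the widest changes that did not overlap between groups. On the scaled values CTNNB1, ZNRF3 and TCF7 were higher in all 3 sgMETTL16 libraries, where 11.5% of genes were, and LGR5 lower, where 22.4% were. As deposited the same held for ZNRF3 (7.68% of genes) and LGR5 (31.2%) but not for CTNNB1 and TCF7. The median change was 0.55 over the 8 genes and 0.89 over all tested.

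Translation efficiency, the question of the series, is the footprint level of a gene relative to its input, and its change was the interaction term of a fit over all 8 libraries. Among coding genes with an input of 10 TPM or more and footprints above 0, the median ratio of footprint to input TPM was lower in all 3 sgMETTL16 cultures. It was 0.857, 0.804 and 0.619 in sgMETTL16-1, sgMETTL16-2 and sgMETTL16-3, against 1.40 in sgNS. With genes at 0 included these medians were 0.431, 0.509 and 0, against 0.376 in sgNS. For CTNNB1 the ratio was 2.70, 2.49 and 2.78 in sgMETTL16-1, sgMETTL16-2 and sgMETTL16-3, against 4.16 in sgNS. The 3 sgMETTL16 values were close together and all below the control, but the scaled fit gave a log2 change of 0.46 (SE 0.71, limma adjusted p = 0.826) and TPM as deposited -0.63, so the direction depended on the scaling of the libraries. TCF7 had ratios of 2.44, 1.18 and 0.722 in the sgMETTL16 cultures, against 1.19 in sgNS, and a log2 change of 1.14 (SE 0.94, limma adjusted p = 0.826). ZNRF3 had the smallest adjusted p of the 8 genes tested (log2 change 2.53, SE 1.02, limma adjusted p = 0.405), with the sgNS footprint listed at 0. LGR5 was at -2.97 (SE 2.23, limma adjusted p = 0.826) and NOTUM at 2.16 (SE 2.08, limma adjusted p = 0.826). 0 of the 8 passed (ZNRF3 alone had an unadjusted limma p under 0.05, 0.0471), where 65 of 8002 genes (0.812%) did. All 65 were listed at 0 in the 3 sgMETTL16 footprint libraries (18) or in sgNS (47), and with the culture as a block, pairing each footprint library with its input, 0 genes passed in limma (604 at an unadjusted p under 0.05). Without any 1 sgMETTL16 culture 0 passed. The median change was 0.80 over the 8 genes and 0.63 over all.

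Footprint and input were last compared across all 4 cultures, guides together, to see which of the genes had more or less footprint signal than their input. CTNNB1 was higher in footprints than in input by 1.5 on the log2 scale (SE 0.38, limma adjusted p = 0.0348), in 4 of 4 cultures. In each culture 89.5% to 95.7% of coding genes with an input of 10 TPM or more had a lower ratio. Genes listed at 0 in the footprints count as lower here. Footprints were above 0 for 2779 of 4277, 3409 of 4586 and 1695 of 3482 such genes in sgMETTL16-1, sgMETTL16-2 and sgMETTL16-3, and for 1688 of 3158 in sgNS. NOTUM was lower, at -4.07 (SE 0.92, limma adjusted p = 0.0234), as were AXIN2 at -3.60 (SE 0.81, limma adjusted p = 0.0230) and ZNRF3 at -2.69 (SE 0.73, limma adjusted p = 0.0407), each in 4 of 4 cultures. TBX3 (-1.98), RNF43 (-1.82), LGR5 (-0.61) and TCF7 (0.27) did not pass. SP5 and NKD1, with the lowest footprint to input ratios of the 10, were not tested because their mean footprint was under 1 TPM, so the filter on footprints bears on which genes could be called. Of the 8 tested genes 4 were called, where 12.9% of 8002 genes were (5.39% higher and 7.5% lower), and the median change was -1.90 over the 8 genes, against -0.73 over all. Of 40 tested genes in the 9 pathway lists, 1 was called higher and 8 lower here.

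**Figure D5:**
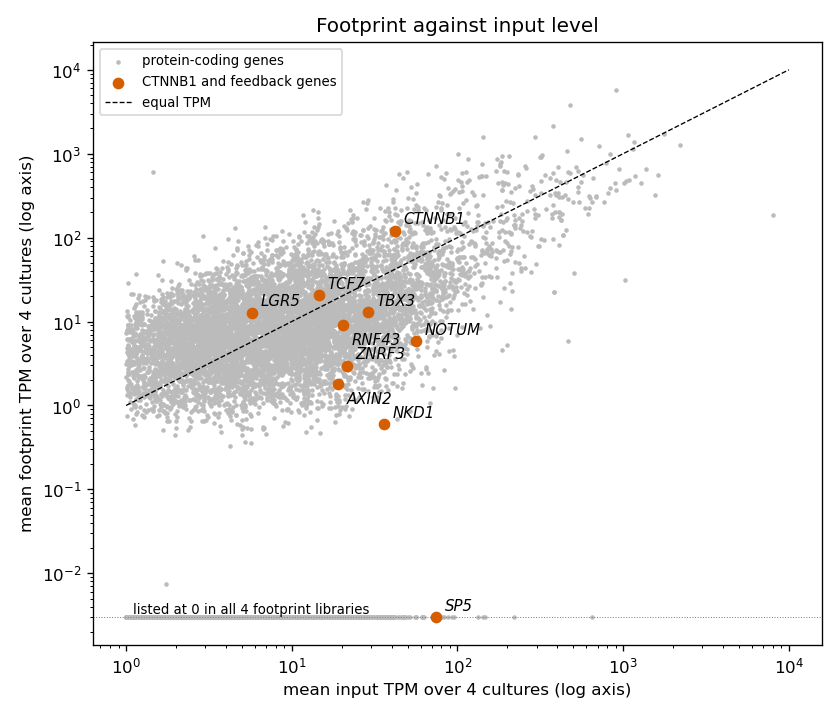
Mean footprint TPM against mean input TPM over the 4 cultures (log axes) for protein-coding genes with a mean input of 1 TPM or more (grey) and for the 10 genes (orange), with genes listed at 0 in all 4 footprint libraries drawn on the dotted line. CTNNB1, TCF7 and LGR5 lie above the line of equal TPM, the other 7 below it, and SP5 on the dotted line.

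The calls depended on how the 4 cultures were used. With the culture as a block the limma adjusted p was 0.0867 for CTNNB1, 0.0580 for AXIN2 and 0.0878 for ZNRF3, none past the threshold, and 0.0363 for NOTUM, and the count over all genes was 516. The block left each change as it was (CTNNB1 1.5). Leaving out any 1 of the 4 cultures ended the calls of CTNNB1, ZNRF3 and NOTUM, for CTNNB1 with limma adjusted p from 0.0695 to 0.129 and changes from 1.37 to 1.64. AXIN2 lost its call without sgMETTL16-2, sgMETTL16-3 or sgNS and fell under the filter without sgMETTL16-1, the only library with AXIN2 footprints. No change of these 4 genes turned its sign, and between 74 and 315 genes were called in all. The footprint side of NOTUM, AXIN2 and ZNRF3 held 2, 3 and 1 libraries at 0, so that their log2 values depend on the 1 TPM added before the logarithm. With 0.1 and 5 TPM added instead, AXIN2 was at -6.07 and -1.97, NOTUM at -5.77 and -2.79 and ZNRF3 at -3.68 and -1.73, whereas CTNNB1 was at 1.52 and 1.41.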

How the data were processed

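Input RNA and ribosome footprints of 4 HEK293T cultures were sequenced as single-end reads of 51 bases after removal of ribosomal RNA, per the labels' protocols. STAR and RSEM 1.2.31 with GRCh38 are named in the submitters' processing notes, and the STAR version is not given in the sources used here. The authors deposited TPM for 26830 gene symbols, 1 column per library, which has the same sum in each, so it holds shares and not depth.

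Groups came from sample titles. The fits used limma (version 3.58.1, under R 4.3.3) and log2(TPM + 1) of genes averaging at least 1 TPM, with an intensity trend and Benjamini-Hochberg adjustment (threshold 0.05). Input libraries were centred on their median tested gene. Footprint libraries, where most genes are at 0, were scaled by the median ratio over genes above 0 in all 4, so that a 0 stays at 0, and the same scaling was used for both kinds in the ratio fits. With 1 sgNS culture, its spread was taken to be that of the sgMETTL16 cultures, which carry different guides, so p-values measure the spread between guides and cultures. In the input fit the prior degrees of freedom were Inf, so each gene took the spread usual for genes of its level. A change on this scale understates that of low genes. The fits were tested on simulated data. Gene types and places came from RefSeq GRCh38.p14, where 23987 symbols matched by name, 1395 by an older name and 1448 not at all.

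The genes and lists were chosen with earlier results of these data known. The rule named all 10 genes, METTL16, and from each list the members past the input threshold, then those with the highest mean input, up to 4. Titles give an input and a footprint library to each culture, so these are pairs. The fits did not use the pairing, and the fit with the culture as a block is given beside them where it changes a call. Their deviations from the mean of their kind correlated at 0.003, 0.004 and 0.06 in sgMETTL16-1, sgMETTL16-2 and sgMETTL16-3 and at 0.042 in sgNS. Alternatives were other pseudocounts (0.1 and 5), filters (none, and a mean TPM of 10), scalings, protein-coding genes only, no trend, a culture left out, and the culture as a block. Figures were drawn with matplotlib 3.10.9.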

Additional observations from a re-analysis of the deposited data

How the results depend on the processing

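In the input, 98 of 109 values of the 10 genes under an alternative kept their sign and none was called. On TPM as deposited 23 genes were called in all, and AXIN2 (0.25), ZNRF3 (0.39) and RNF43 (0.40) turned positive. With no filter ZNRF3 (0.0066) and RNF43 (0.016) did, and RNF43 (0.0036) with a pseudocount of 5. Over protein-coding genes CTNNB1 (-0.0282) and TBX3 (-0.0315) turned negative. Leaving out 1 culture gave 110 to 664 calls in all (110 without sgMETTL16-1, 664 without sgMETTL16-3), with CTNNB1 from -0.13 to 0.31, RNF43 from -0.30 to 0.0048 and TBX3 from -0.0439 to 0.16. Without sgMETTL16-3, NKD1 (-0.88, limma adjusted p = 0.0503) and SP5 (-0.87, limma adjusted p = 0.0534) came nearest to the threshold.

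In the footprints 0 genes passed in limma (88 to 1942 at an unadjusted p under 0.05) when centred on the median tested gene, with no trend, without any 1 of the 3 sgMETTL16 cultures (0 each) or among genes above 0 in all 4 libraries, an alternative chosen after seeing the data, and 146 passed at a mean TPM of 10. Centring turned CTNNB1 (-2.16), AXIN2 (-1.12) and TCF7 (-2.05) negative, as TPM as deposited did CTNNB1 (-0.028). With 1 culture left out RNF43 ranged from -1.27 to 0.69 and TBX3 from -1.39 to 0.97, both positive only without sgMETTL16-3.

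For translation efficiency the count was 724 with a pseudocount of 0.1, 23 with 5, 472 with no filter, 105 at a mean TPM of 10, 14 on TPM as deposited (8 higher and 6 lower, against 47 and 18), 519 over protein-coding genes and 8 with no trend. It was 0 in limma (112 to 1886 at an unadjusted p under 0.05) when centred, with the culture as replicate block, with any sgMETTL16 culture left out, and among genes above 0 in all 4 footprint libraries. CTNNB1 was at -0.63 on TPM as deposited, and with 1 culture left out RNF43 ranged from -1.28 to 1.00 and TBX3 from -1.44 to 1.03.

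For footprint over input the count was 449 with a pseudocount of 0.1, 375 at a mean TPM of 10, 565 on TPM as deposited, 223 when centred, 614 over protein-coding genes, 516 with the replicate block, and from 74 (without sgMETTL16-1) to 315 (without sgMETTL16-3) with 1 culture left out. CTNNB1 kept its call in 6 of 14 alternatives, NOTUM in 6 of 12, AXIN2 in 5 of 11 and ZNRF3 in 3 of 12. LGR5 was at 0.0121 with a pseudocount of 5 and from -1.49 to 0.19 with 1 culture left out, and TCF7 from -0.0056 to 0.55. The cause of these moves was not tested. The replicate block changed no other call of the 10 genes. Depth is unknown, and with 1 sgNS culture no control spread could be measured.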
